A study of Mus musculus with 6 samples.

Results

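The proteasome genes described here are the 49 genes of 22544 in the deposited table whose symbol starts with Psma, Psmb, Psmc, Psmd, Psme, Psmf or Psmg followed by a number, each in a row of its own. They were measured by RNA sequencing in upper-layer cortical neurons of Swiss Webster mice that had been labelled with green fluorescent protein and sorted. The groups were postnatal day 5 (P5) and postnatal day 3 (P3), with 3 biological replicates each (6 samples), and they differ by age alone as far as the labels say. How the fluorescent label was delivered, and whether animals were pooled, is not given in the sources used here. The series concerns how neurons come to stay out of the cell cycle after their birth.

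The proteasome degrades proteins tagged with ubiquitin. Its barrel, the 20S core, is built of outer rings of alpha subunits, which gate the channel, and inner rings of beta subunits, of which Psmb5, Psmb6 and Psmb7 cut peptides. The 19S regulatory particle caps the barrel, recognises ubiquitin and unfolds substrates with a ring of ATPases, and dedicated chaperones assemble both. Inflammatory cytokines induce the replacement catalytic subunits Psmb8, Psmb9 and Psmb10, which make the immunoproteasome. In dividing cells the proteasome removes cyclins and CDK inhibitors, and in neurons it also acts at growth cones and synapses.

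Of the 49 genes, 7 encode alpha subunits, 7 constitutive beta subunits, 3 immunoproteasome subunits, 2 tissue-restricted core subunits, 6 ATPases, 11 other 19S subunits, 5 activators and their inhibitor, and 7 assembly chaperones. The remaining match, Psmc3ip, encodes a partner of the meiotic recombinases and is no proteasome component. Its locus overlaps that of Mlx.

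All levels are FPKM (fragments scaled to transcript length and library size), 1 value per age pooled by Cuffdiff over the replicates, so no SD can be given for a level. Every ratio is the log2 of P5 FPKM over P3 FPKM. Its standard error (SE) is the one that the deposited test statistic implies, and its 95% interval follows from that SE. The table gives no counts, so depth is unknown. The neuronal markers Tubb3, Rbfox3 and Snap25 were present at both ages. All 3 were higher at P5, and they summed to 295 FPKM at P5 and 118 at P3. The 7 of 7 upper-layer markers were also present at both ages, with Cux2 lowest at 1.99 FPKM at P5 and 1.87 at P3. Of these 7, 3 were higher and 4 lower at P5, and they summed to 455 FPKM at P5 and 405 at P3. Markers of other cells were present too, with 12 microglial markers summing to 181 FPKM at P5 and 25.02 at P3, 7 astrocyte markers to 2231 FPKM at P5 and 1608 at P3, and 6 oligodendrocyte markers to 243 FPKM at P5 and 122 at P3. In such sorted bulk RNA, fewer cells of a type and less RNA per cell cannot be told apart.

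Most proteasome genes were abundant at both ages and had nearly the same level at P5 as at P3. No member differed at q = 0.05 in the authors' deposited Cuffdiff test (0 of 46 tested, against 0% of all 12865 tested genes). At an unadjusted p under 0.05 there were 2 of 46 in the authors' deposited table, or 4.35% against 0.770% of all tested genes. Psmb8 was the 1 with higher FPKM at P5, against 0.591% of all tested genes, and Psma8 the 1 with lower FPKM, against 0.179%. Of 45 tested members with FPKM above 0 at both ages, 25 were higher and 20 lower at P5. Their median log2 ratio was 0.08, against 0.13 for the 12313 such genes of the table, so that it was -0.05 relative to all genes. In size, 40 of the 45 ratios lay under 1 (88.9%), against 66.1% of all genes. The intervals were far wider than these ratios. No member's interval would have left out a ratio of 0 below a log2 ratio of 1.64, a 3.11-fold difference, and for the median member that limit was 1.87.

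**Figure D1:**
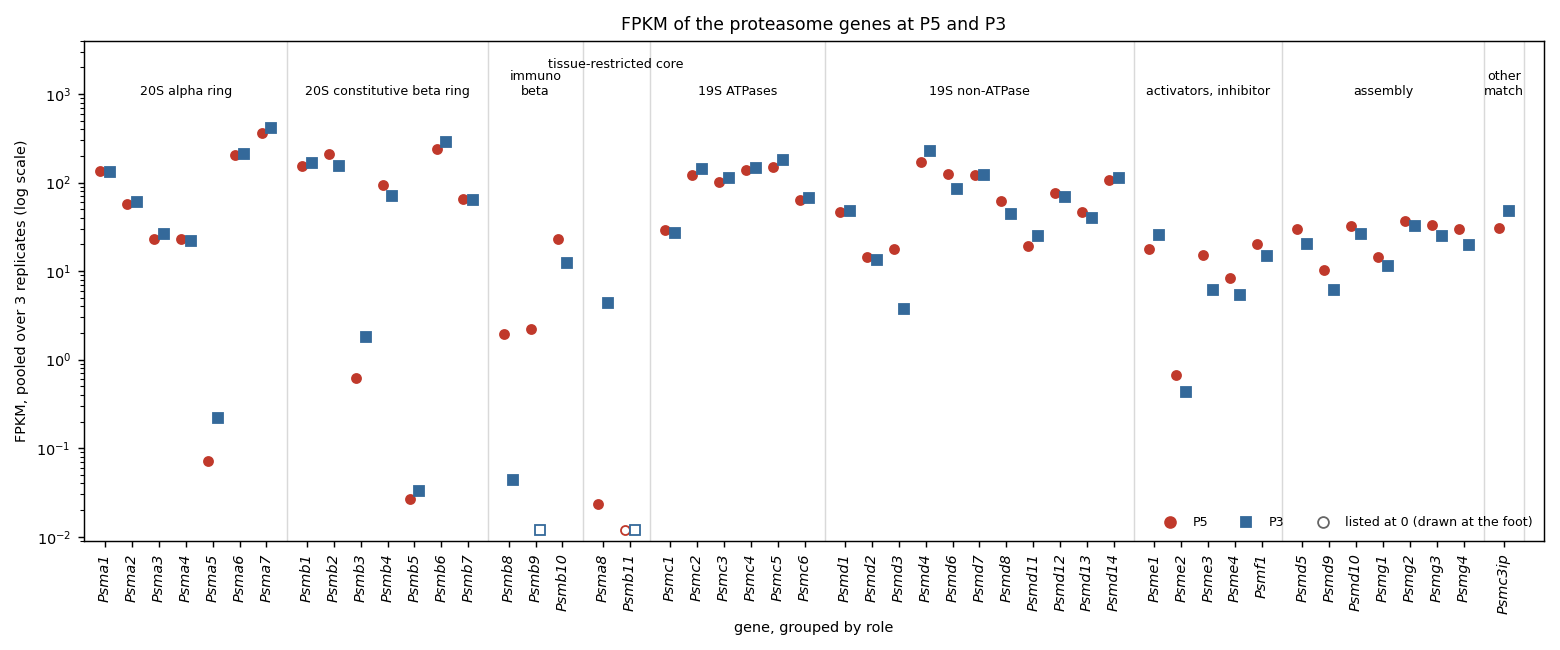
FPKM of each of the 49 genes at P5 (red circles) and P3 (blue squares) on a log axis, grouped by role; each point is 1 value pooled over 3 replicates, and open symbols mark genes listed at 0. Most genes lie above 10 FPKM with both ages close together. Psma5, Psmb3, Psmb5 and Psme2 lie below 2 FPKM at both ages, as do Psmb8 and Psmb11.

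The main exception was a matter of level at both ages, not of age. Psma5, Psmb5 and Psmb3 encode subunits of the core and Psme2 a subunit of an activator, and each was below 2 FPKM at P5 and at P3. The other 39 members of the ring, 19S, activator and assembly groups each reached at least 8.33 FPKM at 1 age or the other. Transcript sequence set these 4 genes apart as well. In GENCODE M21, between 47.4% and 55.8% of all 50-base stretches in their protein-coding transcripts also occur in a gene elsewhere in the genome. For Psma5 and Psmb5 the copy that shares most is a processed pseudogene, which is an intronless copy of an mRNA. For Psmb3 that copy is annotated as a pseudogene, and for Psme2 as protein-coding. Among the other 39 members the highest share was 25.6%, for Psmd2, and 25 of the 39 shared none.

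The first 60 coding bases of these genes, read 5′ to 3′ from GENCODE M21 transcripts (GRCm38), are shown beside those of the copy that shares most with each, because they make the likeness visible; capitals mark the bases that differ within a pair. The copy of Psma5 is the pseudogene Gm8394 on chromosome 10, and that of Psmb5 is Gm3375 on chromosome 7.
Psma5: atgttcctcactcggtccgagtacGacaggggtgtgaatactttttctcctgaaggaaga
Gm8394: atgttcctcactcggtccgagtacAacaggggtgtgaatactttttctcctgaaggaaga
Psmb5: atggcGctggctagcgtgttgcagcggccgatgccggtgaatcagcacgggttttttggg
Gm3375: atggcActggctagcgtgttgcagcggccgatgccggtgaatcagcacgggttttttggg

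For Psmb3 and Psme2 the first 60 coding bases are the same in gene and copy, so each run stands once. The copy of Psmb3 is a pseudogene on chromosome 16, and that of Psme2 is Psme2b on chromosome 11, annotated as protein-coding.
Psmb3: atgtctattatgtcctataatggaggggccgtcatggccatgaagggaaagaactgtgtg
Psme2: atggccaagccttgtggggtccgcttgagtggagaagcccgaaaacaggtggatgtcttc

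Over the whole coding sequence, Psma5 and Gm8394 were 98.9% identical (8 mismatches in 723 aligned bases), Psmb5 and Gm3375 98.9%, Psme2 and Psme2b 99.3%, and Psmb3 and its copy 97.1%. Identity alone did not separate these genes from the rest. Psma3, an alpha subunit at 23.3 FPKM at P5 and 26.1 at P3, matches the pseudogene Gm13835 without a mismatch over 86.5% of its coding sequence, although only 22.0% of the stretches of all its transcripts are shared. Psmd2 and Gm5422 were 96.4% identical, with Psmd2 at 14.5 FPKM at P5 and 13.3 at P3. With stretches of 100 bases the shares overlapped, at 17.99% to 40.3% for the 4 genes and 20% for Psma3. The handling of reads with several matches is not given in the sources used here, and its part in these levels was not tested. The FPKM of these 4 genes are therefore uncertain.

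**Figure D2:**
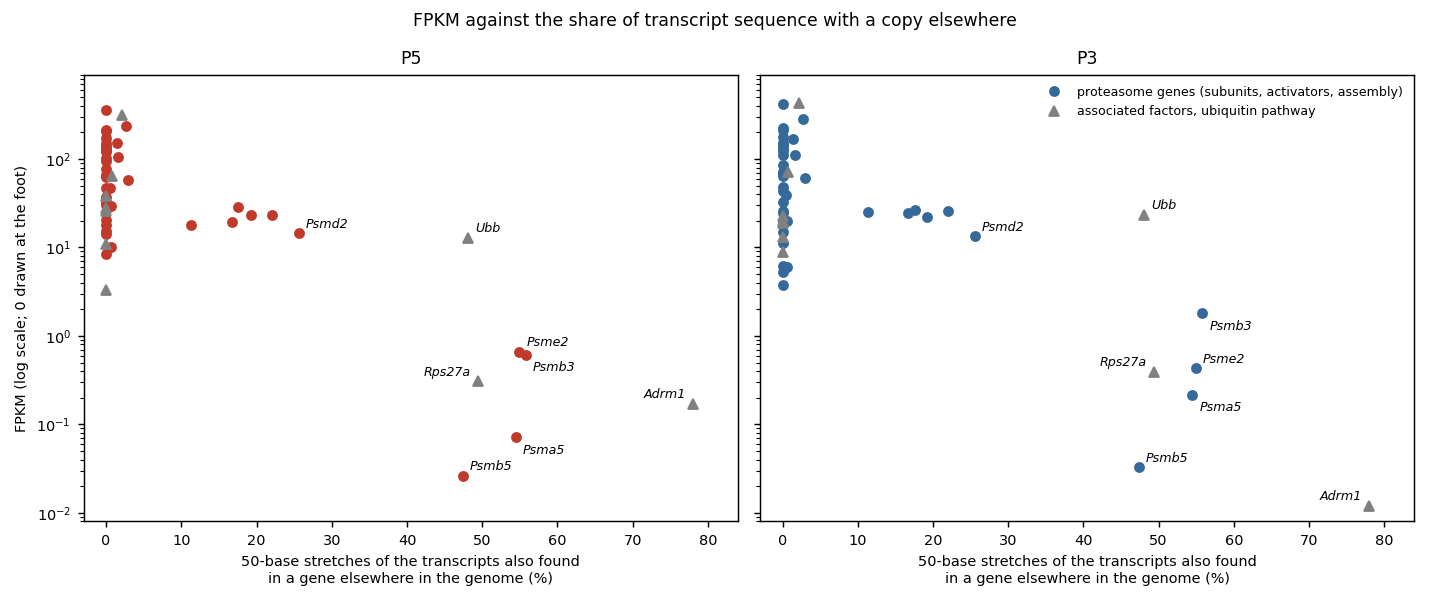
FPKM (log axis) at P5 (left) and P3 (right) against the percentage of 50-base transcript stretches that also occur in a gene elsewhere in the genome. Circles are 43 proteasome genes and triangles are associated factors and other ubiquitin pathway genes. The shuttle and transcription factor genes are not drawn. The proteasome genes above 40% are Psma5, Psmb3, Psmb5 and Psme2, all below 2 FPKM.

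The alpha ring held the most abundant member of all. Psma7 had 359 FPKM at P5 and 418 at P3 (log2 ratio -0.22, SE 0.86). Psma6 followed at 205 FPKM at P5 and 209.8 at P3, then Psma1 at 134 FPKM at P5 and 132 at P3 and Psma2 at 57.9 FPKM at P5 and 60.6 at P3. Psma3 and Psma4 were lowest of the tested alpha genes, Psma4 at 23.2 FPKM at P5 and 21.9 at P3, at a locus that overlaps AY074887. The order of the 6 tested genes was the same at both ages, and all 6 ratios lay between -0.22 and 0.08. Psma5 was at 0.072 FPKM at P5 and 0.22 at P3 and was not tested. The ring's median ratio was -0.05, or -0.18 relative to all genes.

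In the constitutive beta ring, the abundant genes likewise had ratios within 0.5 of 0 in either direction. Psmb6, the caspase-like catalytic subunit, had 237 FPKM at P5 and 287 at P3 (log2 ratio -0.27, SE 0.88). Psmb7, the trypsin-like one, had 65.7 FPKM at P5 and 64.3 at P3. The structural subunits Psmb2, Psmb1 and Psmb4 had 212, 152 and 94.8 FPKM at P5, against 153, 168 and 71.2 at P3, so that Psmb2 ranked above Psmb1 at P5 and below it at P3. That change of order is small beside the errors, with ratios of 0.47 (SE 0.94) for Psmb2 and -0.14 (SE 0.84) for Psmb1. Psmb3 had 0.61 FPKM at P5 and 1.80 at P3 (log2 ratio -1.55, SE 2.90). Psmb5, the chymotrypsin-like subunit, was at 0.026 FPKM at P5 and 0.033 at P3 and was not tested; its locus overlaps Mir686.

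Subunits of a ring are needed in equal numbers, but their transcripts were not at equal levels. Over all 14 genes of the 20S core the SD of log2 FPKM was 4.48 at P5 and 4.08 at P3. Without Psma5, Psmb3 and Psmb5 it was 1.33 at P5 and 1.36 at P3, and the highest gene then stood 15.5 times above the lowest at P5 and 19.1 times at P3. Across the 49 genes the levels at P5 and P3 were closely related (Pearson's r = 0.96 on log2(FPKM + 1), as a description over genes that share the same libraries).

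The 19S ATPases thread substrates into the core, and their genes were abundant at both ages. Their levels ran from 29.0 FPKM for Psmc1 to 152 for Psmc5 at P5 and from 26.8 to 179 for the same genes at P3, and their SD of log2 FPKM was 0.91 at P5 and 1.02 at P3. All 6 ratios lay between -0.24 and 0.11. Of the 6, 5 were lower at P5, or 6 of 6 relative to the median of all genes, and none passed the test. Psmc5 had the most negative ratio, -0.24 (SE 0.84). Psmc1 had the only positive one, 0.11 (SE 0.98), which is below the median of all genes. Psmc1 shares 17.6% of its stretches with genes elsewhere, the others at most 0.046%.

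Among the 11 other 19S subunits 1 stood out by size of ratio. Psmd3, a lid subunit (mm9 chromosome 11, 98543868 to 98557292), had 17.9 FPKM at P5 and 3.73 at P3, a log2 ratio of 2.26 with a 95% interval of -0.55 to 5.08 (p = 0.115, q = 0.999988 in the authors' deposited table). It was the least abundant of the 11 at P3, and no stretch of its transcripts occurs elsewhere. The other 10 ratios lay between -0.40 and 0.53. Psmd4, a ubiquitin receptor, was the most abundant of them at 171 FPKM at P5 and 225 at P3 (log2 ratio -0.40, SE 0.85). Psmd14, the deubiquitinase that removes ubiquitin from substrates, had 106 FPKM at P5 and 112 at P3. The large scaffold subunits Psmd1 and Psmd2 had 46.5 and 14.5 FPKM at P5, against 47.6 and 13.3 at P3, Psmd1 at a locus that overlaps Htr2b.

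The remaining lid genes showed both directions. Psmd6 and Psmd8 were higher at P5, at 123 and 62.3 FPKM against 85.4 and 44.0 at P3. Psmd12 and Psmd13 had 76.2 and 46.7 FPKM at P5, against 69.6 and 39.5 at P3. Psmd7 was level at 122 FPKM at P5 and 123 at P3, and Psmd11 had 19.4 at P5 and 24.6 at P3 (log2 ratio -0.34, SE 0.97). Of the 11 genes, 6 were higher and 5 lower at P5, with a median of 0.12, or -0.01 relative to all genes.

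Summed over the 31 genes of the 20S core and 19S particle, the level was 2980 FPKM at P5 and 3077 at P3, a log2 ratio of -0.05, beside -0.10 for the sum over all genes. Of these subunits 25 had at least 20 FPKM at both ages, and 25 of 25 lay within 1.5-fold between the ages. Of all tested genes at that level, 1461 of 2072 did (70.5%). The interquartile range of the ratios was 0.26 for the 25 subunits and 0.74 for the 2072 genes. This difference in spread was not tested.

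**Figure D3:**
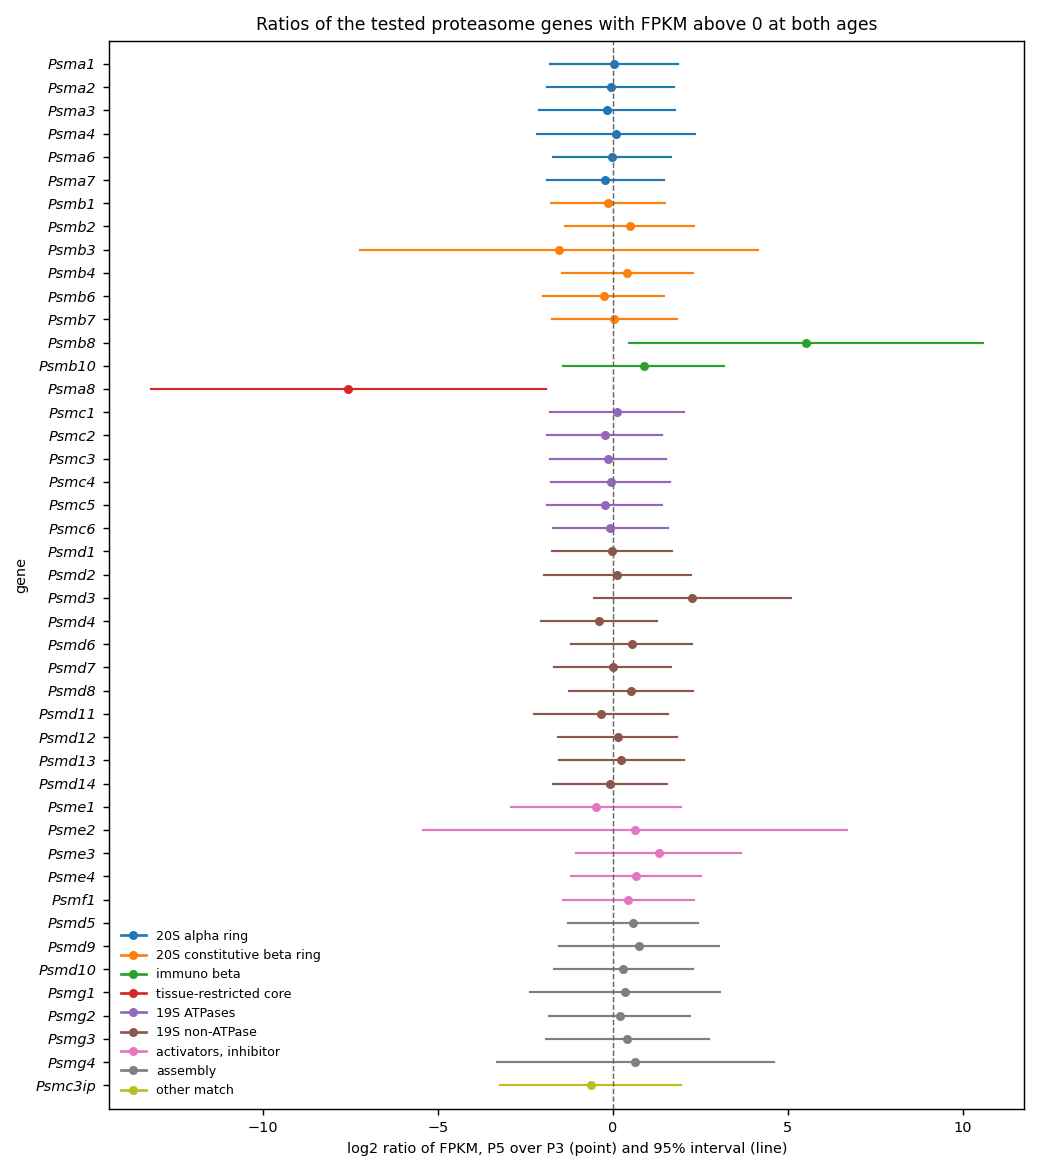
Log2 ratio of FPKM, P5 over P3, for the 45 tested genes with FPKM above 0 at both ages (points), with 95% intervals (lines) and colours for the role. The subunits of the core and the 19S particle cluster at 0 except Psmd3 and Psmb3, and only the intervals of Psmb8 and Psma8 leave out 0.

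The immunoproteasome genes had higher FPKM at P5 in 3 of 3 cases, each at a lower level than Psmb6 and Psmb7 at both ages. Psmb8 (mm9 chromosome 17, 34335140 to 34338399), which replaces Psmb5, had 1.97 FPKM at P5 and 0.043 at P3, a log2 ratio of 5.51 with an interval of 0.46 to 10.6. Its p was 0.033 and its q 0.999988 in the authors' deposited table. Psmb9 (mm9 chromosome 17, 34319044 to 34324275), which replaces Psmb6, had 2.23 FPKM at P5 and was listed at 0 at P3 (p = 0.165 in the authors' deposited table). Psmb10 (mm9 chromosome 8, 108459628 to 108462292), which replaces Psmb7, had 22.8 FPKM at P5 and 12.4 at P3 (log2 ratio 0.88, SE 1.18). Psmb10 was thus the only one above 0.1 FPKM at P3. The ratio of Psmb8 rests on a P3 level near 0, and with 1 FPKM added to both levels it was 1.51.

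Set against its constitutive partner, Psmb10 made up 25.8% of the FPKM of the Psmb10 and Psmb7 pair at P5 and 16.2% at P3. Psmb9 made up 0.93% of its pair with Psmb6 at P5 and 0% at P3. The pair of Psmb8 and Psmb5 gives no usable share, since Psmb5 is one of the genes with uncertain FPKM. Over all 3 pairs the immunoproteasome share was 8.18% at P5 and 3.43% at P3, and without the pair of Psmb8 and Psmb5 it was 7.63% at P5 and 3.42% at P3.

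Genes that work with the immunoproteasome in antigen presentation also tended to higher FPKM at P5, and none passed the test. In a list of 20 genes of MHC class I presentation and the interferon response, 14 were tested, 11 higher and 3 lower at P5, with a median log2 ratio of 1.08 against 0.13 for all genes. B2m, the class I light chain, had 61.9 FPKM at P5 and 10.4 at P3 (log2 ratio 2.57, SE 2.03). Ifi35, an interferon-induced gene, had 1.87 FPKM at P5 and 0.060 at P3, and the interferon gamma receptor gene Ifngr2 63.3 at P5 and 35.1 at P3. The peptide transporter genes differed in direction, Tap1 at 0.49 FPKM at P5 and 0.36 at P3, not tested, and Tap2 at 0.73 FPKM at P5 and 1.71 at P3. The class I heavy chain genes H2-K1 and H2-D1 had 6.81 and 2.0 FPKM at P5, against 7.24 and 2.4 at P3, and share 6.87% and 13.9% of their stretches, mostly with other class I genes.

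Markers of microglia and macrophages, cells that carry the immunoproteasome, also had higher FPKM at P5. Of 12 such markers 12 had higher FPKM at P5, against 55.6% of all genes, and none was at 0 at either age. Their median log2 ratio was 4.69 (median SE 2.83), against 0.13 for all genes, and none passed the test. The ratios ran from 1.22 to 6.35, and most rest on P3 levels near 0, with a median of 0.43 FPKM at P3. Fcer1g had 30.4 FPKM at P5 and 0.49 at P3, Cd68 15.8 at P5 and 0.19 at P3, and C1qb 27.5 at P5 and 9.69 at P3. Endothelial and mural markers were higher in 6 of 8 tested cases, with Tek at 0 at P3, and their sum was 947 FPKM at P5 and 916 at P3, nearly all of it Rgs5. The part of these cells in the immunoproteasome values was not tested.

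**Figure D4:**
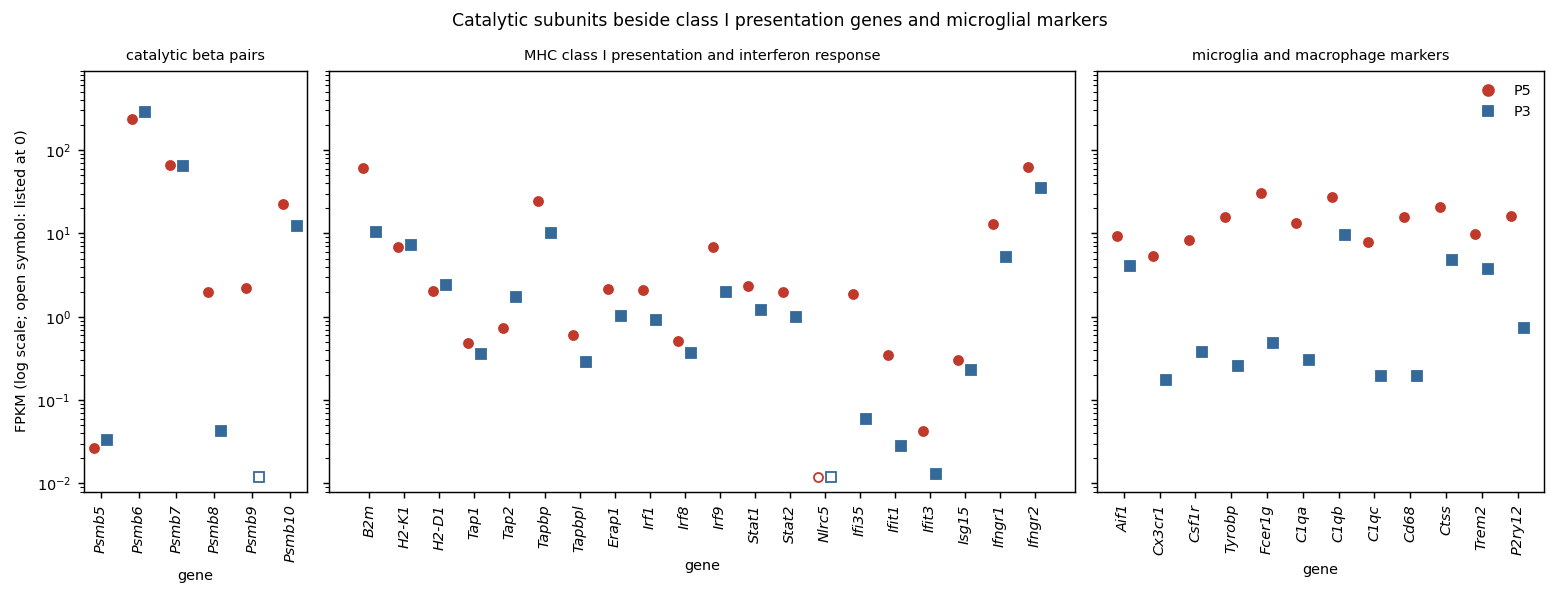
FPKM (log axis) at P5 (red circles) and P3 (blue squares) of the catalytic subunits, of 20 genes of MHC class I presentation and the interferon response, and of 12 microglial and macrophage markers; open symbols mark genes listed at 0. Psmb8, Psmb9 and Psmb10 are higher at P5, as are 12 of 12 microglial markers, while Psmb6 and Psmb7 lie close together at the 2 ages.

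The tissue-restricted core genes were near or at 0 at P5, and Psma8 was above 1 FPKM at P3. Psma8, a paralog of Psma7 found in the testis, had 0.023 FPKM at P5 and 4.41 at P3, a log2 ratio of -7.57 with an interval of -13.2 to -1.93. Its p of 0.0085 was the lowest of the members in the authors' deposited table (q = 0.999988). The ratio rests on a P5 level near 0, and with 1 FPKM added to both levels it was -2.40. At P3 Psma8 stood at about the level of the lowest 19S subunit, and far below Psma7. Psmb11, the catalytic subunit of the thymus, was listed at 0 at P5 and at P3, and no test was made. Psmc3ip had 30.7 FPKM at P5 and 47.9 at P3 (log2 ratio -0.64, SE 1.32), the most negative ratio of any member that reached 5 FPKM at P5 or at P3.

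Activators of the core, which open its gate without ubiquitin, were below the median of the core and 19S genes. That median was 76.2 FPKM at P5 and 69.6 at P3. Psme3, the nuclear activator PA28 gamma, had 15.3 FPKM at P5 and 6.19 at P3, a log2 ratio of 1.30 (SE 1.21, interval -1.06 to 3.66). Psme1, which forms PA28 with Psme2 and is induced by interferon gamma like the immunoproteasome, had lower FPKM at P5, at 17.9 FPKM at P5 and 25.3 at P3 (log2 ratio -0.50, SE 1.24), at a locus that overlaps Fam158a. Psme2 had 0.66 FPKM at P5 and 0.43 at P3, with the uncertainty given above. Psme4, the large nuclear activator PA200, had 8.33 FPKM at P5 and 5.31 at P3, and Psmf1, which inhibits the core in vitro, 20.2 at P5 and 14.9 at P3. Of the 5, 4 were higher at P5, with a median log2 ratio of 0.63.

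The assembly chaperones shared 1 direction in these values. All 7 had higher FPKM at P5, also relative to the median of all genes, with a median log2 ratio of 0.41, and none passed the test. Over all genes, 55.6% were higher at P5. For the core, Psmg1 and Psmg2, which act as a pair in forming the alpha ring, had 14.3 and 36.9 FPKM at P5, against 11.3 and 32.3 at P3. Psmg3 and Psmg4, the second pair, had 32.8 and 30.2 FPKM at P5, against 24.7 and 19.5 at P3. For the base of the 19S particle, the chaperones Psmd5, Psmd9 and Psmd10 had 29.8, 10.2 and 32.0 FPKM at P5, against 20.1, 6.07 and 26.2 at P3. The ratios ran from 0.19 for Psmg2 to 0.75 for Psmd9, and each was smaller than its own SE, the lowest of which was 0.95. Psmg4 had the widest error, with a ratio of 0.63 and an SE of 2.0.

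Assembly was not of 1 direction in every gene. Pomp, the chaperone that completes the core and is not matched by the symbol rule, had 316 FPKM at P5 and 433 at P3 (log2 ratio -0.46, SE 0.84), far above the 7 chaperones. It stands in a list of 11 subunits, factors and associated enzymes outside the rule, of which 8 are in the table and 7 were tested, 4 higher and 3 lower at P5 with a median of 0.06. Shfm1, a small lid subunit, had 192 FPKM at P5 and 236 at P3. Txnl1, a thioredoxin-like protein bound to the 19S particle, had the lowest p of the list (p = 0.34 in the authors' deposited table), at 37.7 FPKM at P5 and 20.05 at P3. The deubiquitinases Usp14 and Uchl5 had 28.1 and 25.9 FPKM at P5, against 18.7 and 22.4 at P3.

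Genes that deliver substrates or set proteasome supply were more often lower than higher at P5. Of 10 tested ubiquitin shuttle and transcription factor genes, 8 were lower and 2 higher at P5, with a median log2 ratio of -0.45, and none passed the test. Nfe2l1, the transcription factor that raises proteasome genes when proteasome activity is short, was level at 12.5 FPKM at P5 and 12.7 at P3. Ngly1, the enzyme that activates it, had 6.72 FPKM at P5 and 14.2 at P3 (log2 ratio -1.08, SE 1.17). The shuttle factors Ubqln1 and Ubqln2 had 23.1 and 16.9 FPKM at P5, against 34.1 and 29.1 at P3. Zfand2a, a stress-induced proteasome-binding protein, had 9.06 FPKM at P5 and 3.24 at P3.

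Among genes that supply and activate ubiquitin, none of those named here passed the test. Uba1, the main activating enzyme, had 64.3 FPKM at P5 and 72.0 at P3, and Uba6, the alternative one, 3.31 at P5 and 8.99 at P3 (log2 ratio -1.44, SE 1.04). The polyubiquitin gene Ubb had 12.8 FPKM at P5 and 23.3 at P3 (log2 ratio -0.86, SE 1.46). In the lists of other pathway genes, near-absent levels went with shared stretches in some genes and not in others. Rps27a, a ubiquitin fusion gene, was at 0.31 FPKM at P5 and 0.40 at P3 with 49.4% of its stretches shared, and the 19S ubiquitin receptor gene Adrm1 was at 0.17 FPKM at P5 and listed at 0 at P3 with 78.0%. Ubb was an exception, with 48.1% shared. So were Ddi1 and Ddi2 of the shuttle list, which share no stretch. Ddi1 was listed at 0 at both ages, and Ddi2 was at 0.33 FPKM at P5 and 0.42 at P3.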

How the data were processed

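RNA from GFP-labelled, sorted upper-layer neurons of P5 and P3 mice (3 biological replicates each) was extracted with a column kit, per the labels' protocols. The submitters' processing notes name TopHat, Cuffdiff 2.02 and mm9, without the role of each. The authors deposited 1 table with FPKM per age, pooled over replicates, and a log2 ratio and a test statistic per gene (both handled as scores, because they hold placeholders where 1 age is at 0). The p-value and q-value are the authors' deposited Cuffdiff results. Depth per sample is unknown, and 0 columns of per-sample values were left unused.

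SE was computed as the ratio divided by the statistic. In members the deposited p equalled the normal tail of the statistic to within 1.9e-06. Status was OK in 12865 rows. A gene was used for ratios where it was tested and above 0 at both ages. Loci are mm9, counted from 1. Gene roles, lists and members were chosen with earlier results of these data known. The text names the immunoproteasome, PA28 and assembly genes, the highest and lowest gene of each role, the 6 largest ratios each way at 5 FPKM or more, members not tested or with p under 0.05, and 2 genes by p and 2 by level from each list of other pathway genes; others were named after their values were seen. Some genes of the ubiquitin list are not reported here. Markers follow a list of 6 cell types.

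Transcript stretches of 50 bases were compared on both strands with all GENCODE M21 transcripts (GRCm38), leaving out genes that overlap the gene's own locus; coding sequences were aligned locally with Biopython 1.88. That annotation may differ from the one used upstream. Alternatives were q at 0.01, unadjusted p, a rescaled statistic, a minimum of 1 FPKM, pseudocounts of 1 and 0.1 FPKM, centring, means and sums. Python 3.11.15 with pandas 2.3.3 and scipy 1.17.1 was used.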

Additional observations from a re-analysis of the deposited data

How the results depend on the processing

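No paired analysis was possible because the table holds 1 pooled value per age and no column per replicate, and for the same reason no replicate could be left out. The count of 0 members at q = 0.05 was also 0 at q = 0.01, with a minimum of 1 FPKM at either age, and with the statistic divided by its robust spread of 0.66, where the lowest q of a member was 0.115 for Psma8 and 3 genes of the table passed; at an unadjusted p under 0.05 it was 2. The median of the immunoproteasome genes, 3.19 over the 2 genes with a ratio, was 1.17 with a pseudocount of 1 FPKM and 1.11 as a ratio of sums. Relative to all genes, 0 of 6 ATPases were higher at P5, against 1 without centring. Centring also turned the sign of the median over all members (0.08 to -0.05) and of the non-ATPase 19S median (0.12 to -0.01). The median of the beta ring was -0.06, and 0.03 as a ratio of sums.

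The immunoproteasome share of 8.18% at P5 and 3.43% at P3 was 25.8% at P5 and 16.2% at P3 in the pair of Psmb10 and Psmb7, 0.93% at P5 and 0% at P3 in that of Psmb9 and Psmb6, and 98.7% at P5 and 56.7% at P3 in that of Psmb8 and Psmb5, where Psmb5 is near 0. The SD of log2 FPKM over the 20S core, 4.48 at P5 and 4.08 at P3, was 2.48 at P5 and 2.13 at P3 over tested genes, and 1.33 at P5 and 1.36 at P3 over genes of mean FPKM at least 5. With stretches of 100 bases, 1 further member reached the shared percentage of the lowest of the 4 near-absent genes, against 0 with 50 or 36 bases. The stretch lengths, the 5 FPKM minimum, the share without a pair and the centred counts were added after the data were seen. In all, 59 of 74 alternatives moved a median by less than its members' error, or a count or share by under 1.5 times. For single genes 112 of 114 moved by less than the gene's SE. The exceptions were Psmb8 (1.51) and Psma8 (-2.40) with a pseudocount of 1 FPKM. A gene with a wide SE passes this limit easily, so the tally does not show that the other ratios are stable. With that pseudocount Ifi35 went from 4.97 to 1.44 (SE 3.56) and Psma5 from -1.60 to -0.18 (SE 3.43), and both count as within it. Centring shifts every ratio and every median by 0.13, and the lowest SE of any gene was 0.82. For ratios and medians, centring therefore could not exceed these errors, and those entries in both tallies carry no information. The centred counts were judged by the limit of 1.5 times, and that of the ATPases moved from 1 to 0. Among the named genes, centring turned the sign of Psmc1 alone. Without counts or replicate values, only the SE of the deposited test could be used. By that SE, no member with a ratio under 3.11-fold could have reached an unadjusted p of 0.05. The limit of q = 0.05 was stricter, and 0 of all 12865 tested genes reached it.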
